A study of Mus musculus with 4 samples.

Results

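The tumour suppressor p53 is a transcription factor that is held at a low level by the ubiquitin ligase Mdm2 and is stabilised by DNA damage and other stress. It switches on genes that stop the cell cycle, repair damage, limit its own activity or, where damage persists, start apoptosis. In the kidney, tubular cells that survive ischemia are known to express cell cycle inhibitors such as p21, the product of Cdkn1a, while they recover. The genes described here are Cdkn1a, Mdm2, Ccng1, Gdf15, Bax, Bbc3, Sesn2, Trp53inp1, Btg2 and Gadd45a, all known as p53 targets. They were chosen by name, as the non-control probes whose gene name in the scanner files is one of these, which gave 10 genes of 21216, 16 probes of 41142 and 43 spots.

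RNA was taken from kidneys of 8-week-old C57BL/6 mice in 4 groups, each measured on 1 one-colour Agilent array. The groups were Nlrc5-/- with ischemia and reperfusion, WT with ischemia and reperfusion, Nlrc5-/- with a sham operation and WT with a sham operation. Nlrc5 encodes a member of the NOD-like receptor family that regulates MHC class I genes. Both kidneys of the injured mice were made ischemic for 30 min, and the labels give the reperfusion as 48 h in the titles and the design and as 24 h in the descriptions. Levels are log2 of the processed signal minus the 75th percentile of that array, so 0 marks the 75th percentile. With 1 array per group no difference between 2 groups has a replicate check or a p-value.

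The scale value of each array, its 75th percentile, was 362.2 in Nlrc5-/- injured and 181.7 in WT injured kidney, and 465.4 in Nlrc5-/- sham and 456.2 in WT sham kidney. The WT injured array was thus the dimmest. All 10 proximal tubule markers examined were well above background on all 4 arrays. Both Nlrc5-/- arrays lay on 1 slide and both WT arrays on another, so genotype and slide cannot be told apart, whereas each injury comparison was made within a slide. The Nlrc5-/- sham array had the pattern of a female kidney, with 0 of 4 genes of the Y chromosome above background and Xist high, and the other arrays had a male pattern. The single Nlrc5 probe read -3.62 in Nlrc5-/- injured, -3.34 in WT injured, -3.77 in Nlrc5-/- sham and -4.08 in WT sham kidney. The deleted part of the gene is not given in the sources used here, so this probe does not check the genotype.

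Promoter sequences are shown for the 4 genes on which the comparisons below turn, Cdkn1a, Gadd45a, Btg2 and Gdf15, because p53 acts on its targets through DNA. They are RefSeq sequences of the GRCm38.p6 build, from 250 bases before to 50 bases after a transcription start, written 5′ to 3′ on the strand of the gene. Cdkn1a is on the plus strand of chromosome 17 (chr17:29090729-29091028, the upstream of 2 start sites, which lie 2790 bases apart). Gadd45a is on the minus strand of chromosome 6 (chr6:67037358-67037657), Btg2 on the minus strand of chromosome 1 (chr1:134079106-134079405) and Gdf15 on the minus strand of chromosome 8 (chr8:70632407-70632706). Capitals mark an exact match to the p53 half-site consensus or, in Btg2, the cyclic AMP response element TGACGTCA.
Cdkn1a: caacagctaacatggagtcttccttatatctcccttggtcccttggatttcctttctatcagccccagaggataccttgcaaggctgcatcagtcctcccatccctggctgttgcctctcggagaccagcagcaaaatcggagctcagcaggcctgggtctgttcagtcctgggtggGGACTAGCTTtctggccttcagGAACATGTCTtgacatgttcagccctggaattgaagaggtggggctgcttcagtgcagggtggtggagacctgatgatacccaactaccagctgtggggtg
Gadd45a: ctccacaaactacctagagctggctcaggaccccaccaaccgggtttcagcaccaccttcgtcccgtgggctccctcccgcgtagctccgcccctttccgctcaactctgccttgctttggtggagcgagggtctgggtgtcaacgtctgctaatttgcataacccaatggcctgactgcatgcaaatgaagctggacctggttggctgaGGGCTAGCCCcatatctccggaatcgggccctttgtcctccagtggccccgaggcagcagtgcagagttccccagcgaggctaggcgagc
Btg2: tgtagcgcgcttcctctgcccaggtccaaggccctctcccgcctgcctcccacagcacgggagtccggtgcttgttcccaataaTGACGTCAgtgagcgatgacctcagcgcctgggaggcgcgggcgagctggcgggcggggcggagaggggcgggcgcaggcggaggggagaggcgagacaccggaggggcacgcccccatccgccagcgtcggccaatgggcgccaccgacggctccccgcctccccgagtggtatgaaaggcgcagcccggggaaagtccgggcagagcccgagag
Gdf15: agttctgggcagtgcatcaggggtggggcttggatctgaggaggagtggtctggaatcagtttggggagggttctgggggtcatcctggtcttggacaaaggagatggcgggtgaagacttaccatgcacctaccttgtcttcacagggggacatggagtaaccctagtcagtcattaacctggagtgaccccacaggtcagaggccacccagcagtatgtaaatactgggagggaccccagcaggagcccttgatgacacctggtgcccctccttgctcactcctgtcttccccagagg

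The upstream Cdkn1a window held 2 matches to the p53 half-site consensus, beginning 73 and 51 bases before the start site. Gadd45a held 1, beginning 40 bases before its start. Btg2 and Gdf15 had no exact match in the windows shown, and Btg2 had the response element 166 bases before its start. RefSeq windows were found for 9 of the 10 genes, 13 windows in all, and 5 genes (Cdkn1a, Mdm2, Ccng1, Bax and Gadd45a) had a match in 1 window each. On both strands, a match was found in 8.36% of 32851 mouse promoter windows of this length, and the response element in 1.79%. These matches describe letters in a window, and binding by p53 was not measured.

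All 16 probes were well above background on all 4 arrays. Cdkn1a, Gdf15, Btg2 and Gadd45a read highest in WT injured kidney, each by more than 2-fold over every other array. The margin over the next array was 1.99 on the log2 scale for Cdkn1a, 2.54 for Gdf15, 1.83 for Btg2 and 1.63 for Gadd45a. WT injured kidney was at least 2-fold above each other array for 4.10% of 14994 genes above background on all 4 arrays, and it was the highest of the 4 for 31.8% of them. The other 6 genes had no such margin.

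**Figure D1:**
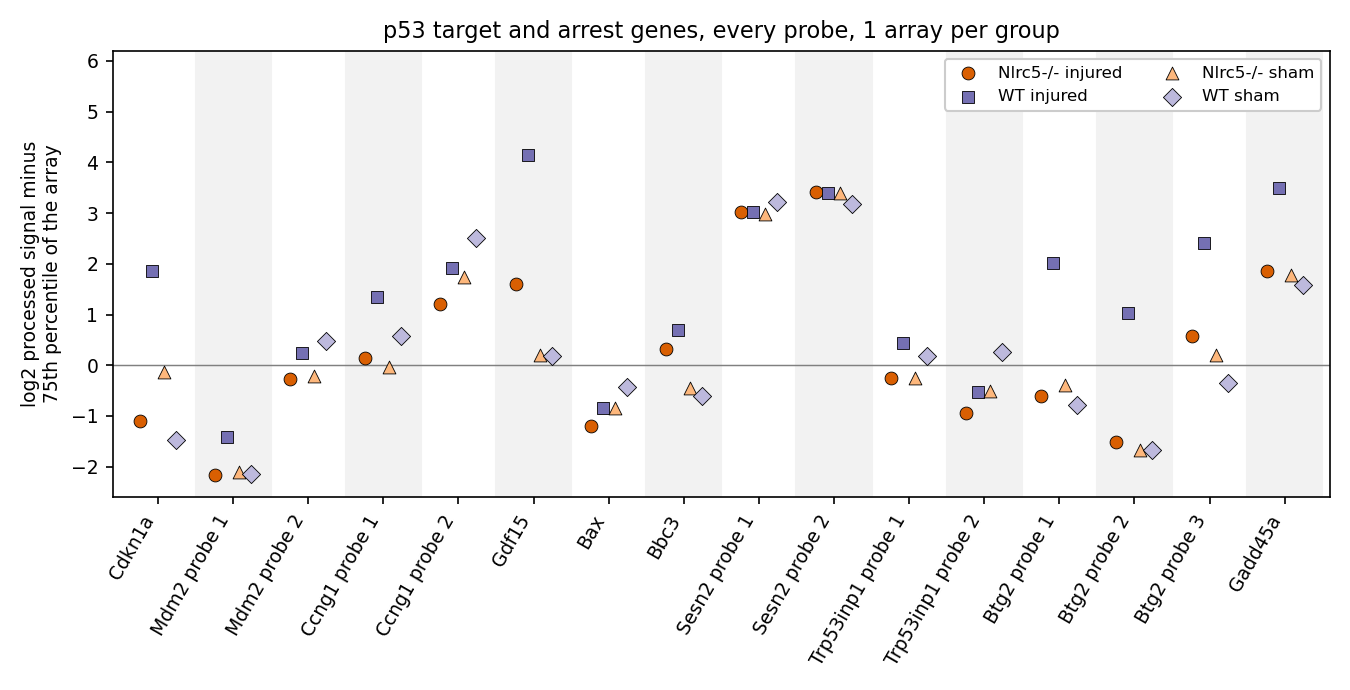
Level of each of the 16 probes (log2 processed signal minus the 75th percentile of the array, vertical axis) on the 4 arrays, 1 point per array, with no error bar since each group has 1 array. The WT injured points stand above the others for Cdkn1a, Gdf15, Gadd45a and the 3 Btg2 probes, and the Sesn2 points lie close together. Probes are numbered in the order of their probe identifiers, and heights are comparable between arrays for a probe, not between probes.

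Cdkn1a encodes p21, an inhibitor of cyclin-dependent kinases that holds cells before DNA replication. Its probe (chr17:29237377-29237436, mm9, plus strand) was printed in 10 spots and read -1.10 in Nlrc5-/- injured, 1.86 in WT injured, -0.14 in Nlrc5-/- sham and -1.47 in WT sham kidney. The injured WT kidney was highest and the sham WT kidney lowest, with the Nlrc5-/- kidneys between them. Injury went with a level 0.96 lower in Nlrc5-/- kidney and 3.33 higher, or 10.02-fold, in WT kidney. Between injured kidneys the difference was -2.96, or 7.76-fold lower in Nlrc5-/- kidney. Between sham kidneys it was 1.33, or 2.52-fold higher in Nlrc5-/- kidney. Spots of the probe had SDs of 0.04 in Nlrc5-/- injured, 0.04 in WT injured, 0.05 in Nlrc5-/- sham and 0.10 in WT sham kidney, so the 4 arrays did not overlap in any spot. This spread is technical and leaves out the difference between animals. Cdkn1a in Nlrc5-/- injured kidney was 0.37 above WT sham kidney, so the sign of its injury response in Nlrc5-/- mice depended on which sham array was the baseline. The Nlrc5-/- injury difference of every gene, and so the difference of responses, sets an injured kidney of male pattern against a sham kidney of female pattern, and injury and sex cannot be told apart in it.

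**Figure D2:**
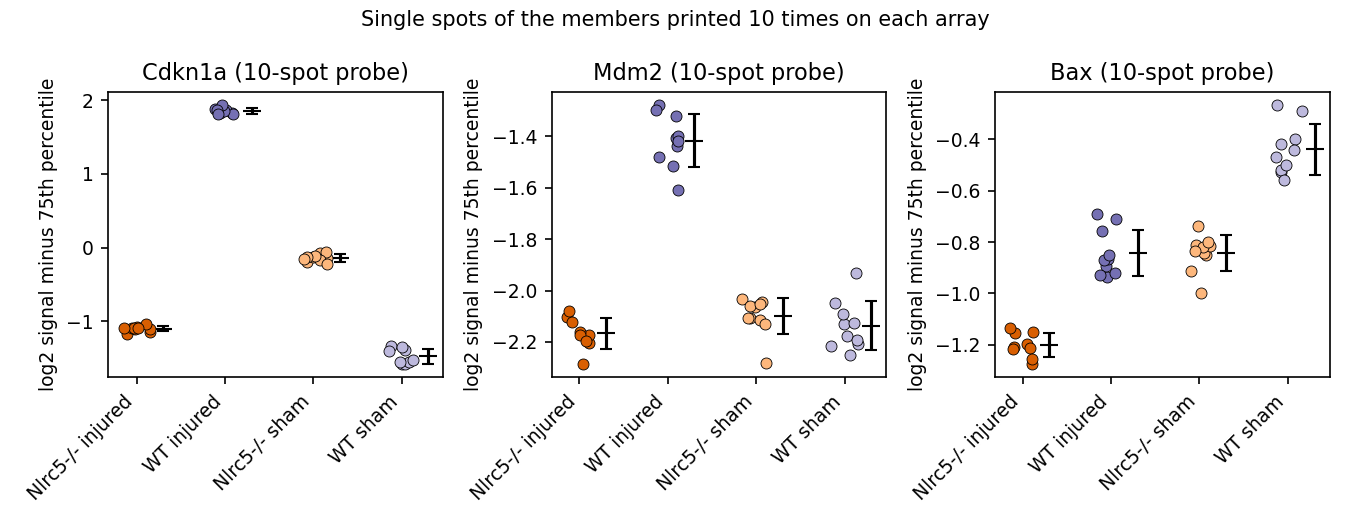
Single spots of the Cdkn1a, Mdm2 and Bax probes that were printed 10 times on each array (log2 signal minus the 75th percentile, vertical axis, a different scale in each panel), with the mean and SD over spots beside them. For Cdkn1a the spots of the 4 arrays form 4 separate groups, with WT injured highest; the SD covers technical spread within 1 array only.

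Gdf15 encodes a circulating cytokine of the TGF-beta superfamily that marks cell stress and is switched on by p53 and by the integrated stress response. Its probe (chr8:73153471-73153530, mm9, minus strand) read 1.61 in Nlrc5-/- injured, 4.15 in WT injured, 0.21 in Nlrc5-/- sham and 0.18 in WT sham kidney. The sham kidneys lay 0.03 apart, and both injured kidneys lay above them. The injured level exceeded the sham level by 1.40 in Nlrc5-/- kidney and by 3.97, or 15.7-fold, in WT kidney. Gdf15 was therefore 2.54 lower, or 5.80-fold, in Nlrc5-/- injured than in WT injured kidney.

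Btg2 encodes an antiproliferative protein that acts with the deadenylation machinery of the cell. Its brightest probe (chr1:135973916-135973975, mm9, minus strand) read 0.58 in Nlrc5-/- injured, 2.41 in WT injured, 0.19 in Nlrc5-/- sham and -0.35 in WT sham kidney. The difference with injury was 0.38 in Nlrc5-/- kidney and 2.76 in WT kidney. The other probes of the gene gave injury differences of -0.21 and 0.15 in Nlrc5-/- kidney and of 2.80 and 2.70 in WT kidney. Between injured kidneys the 3 probes gave -1.83, -2.62 and -2.54. On all 3 Btg2 probes WT injured kidney stood above the other 3 kidneys.

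Gadd45a encodes a growth arrest and DNA damage protein that binds p21 and stress kinases. Its probe (chr6:66985376-66985435, mm9, minus strand) read 1.86 in Nlrc5-/- injured, 3.49 in WT injured, 1.77 in Nlrc5-/- sham and 1.58 in WT sham kidney. The difference with injury was 0.09 in Nlrc5-/- kidney, about the size of the spot SD of 0.08 for that comparison, and 1.91, or 3.75-fold, in WT kidney. Between injured kidneys Gadd45a was 1.63 lower, or 3.09-fold, in Nlrc5-/- kidney.

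The genes that act in apoptosis differed less between the arrays. Bbc3 encodes Puma, a BH3-only protein that triggers the mitochondrial pathway, and its level was 0.32 in Nlrc5-/- injured, 0.70 in WT injured, -0.46 in Nlrc5-/- sham and -0.60 in WT sham kidney. Both injured kidneys read above both sham kidneys, by 0.78 in Nlrc5-/- and 1.30 in WT mice, and the injured kidneys differed by -0.37. Bax, which permeabilises the outer mitochondrial membrane, read -1.20 in Nlrc5-/- injured, -0.84 in WT injured, -0.84 in Nlrc5-/- sham and -0.44 in WT sham kidney over 10 spots. Its injured level was below its sham level in both genotypes, at -0.36 in Nlrc5-/- and -0.40 in WT kidney. With another background correction, normexp, these were 0.20 and -0.19, so the sign in Nlrc5-/- kidney depended on the processing. Trp53inp1 encodes a nuclear protein that promotes p53 activity and cell death, and its 2 probes disagreed on injury in WT kidney, at 0.27 and -0.79. Both Trp53inp1 probes read lower in Nlrc5-/- injured than in WT injured kidney, with differences of -0.70 and -0.42.

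The feedback and metabolic genes also differed little or depended on the probe. Mdm2, which marks p53 for degradation and is itself a p53 target, had a 10-spot probe at -2.17 in Nlrc5-/- injured, -1.41 in WT injured, -2.10 in Nlrc5-/- sham and -2.13 in WT sham kidney. On this probe WT injured kidney stood apart, with an injury difference of -0.07 in Nlrc5-/- and 0.72 in WT kidney. A brighter single-spot Mdm2 probe 3447 bases away read -0.28 in Nlrc5-/- injured, 0.24 in WT injured, -0.21 in Nlrc5-/- sham and 0.47 in WT sham kidney, an injury difference of -0.23 in WT kidney. The direction in WT kidney therefore depended on the Mdm2 probe, whereas both probes read lower in Nlrc5-/- injured than in WT injured kidney, at -0.75 and -0.52. Ccng1, which encodes cyclin G1, a regulator of Mdm2 through protein phosphatase 2A, showed the same kind of disagreement. Its brightest probe gave injury differences of -0.52 in Nlrc5-/- and -0.58 in WT kidney, and the other probe, 1986 bases away, gave 0.18 in Nlrc5-/- and 0.78 in WT kidney. Between injured kidneys the 2 Ccng1 probes gave -0.71 and -1.21. Sesn2, which encodes a sestrin that restrains mTORC1 signalling under stress, was nearly level between the injured kidneys, with 3.417 in Nlrc5-/- injured, 3.400 in WT injured, 3.403 in Nlrc5-/- sham and 3.180 in WT sham kidney by its brightest probe. The other Sesn2 probe differed by 0.01 between the injured kidneys. The 2 probes disagreed on injury in WT kidney, at 0.22 by the brightest and -0.20 by the other.

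Counted by the brightest probe of each gene, injured Nlrc5-/- kidney had 1 of the 10 genes at least 2-fold higher than sham (Gdf15), where 4.43% of 17087 genes were. Injured WT kidney had 5 of the 10 at least 2-fold higher than sham (Cdkn1a, Gdf15, Bbc3, Btg2 and Gadd45a), where 14.3% of 16719 genes above background on either array were. The number at least 2-fold lower was 0 of 10 in both genotypes, where 3.19% of all genes were in Nlrc5-/- and 12.7% in WT kidney. With WT sham kidney as the baseline of Nlrc5-/- injured kidney, 2 of the 10 were at least 2-fold apart (Gdf15 higher, Ccng1 lower), where 17.3% of 16909 genes were. The median difference of the 10 genes was 0.01 in Nlrc5-/- kidney, against 0.02 over all genes, and 0.78 in WT kidney, against 0.03 over all genes.

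Between the injured kidneys, 4 of the 10 genes were at least 2-fold lower in Nlrc5-/- mice (Cdkn1a, Gdf15, Btg2 and Gadd45a), where 7.80% of 16790 genes were, and 0 were 2-fold higher, where 8.67% of all genes were. Of the 10 genes, 9 had a negative difference, where 49.3% of all genes had, and Sesn2 stood at 0.02. Their median was -0.70, against 0.01 over all genes. These comparisons share the WT injured array, so the injury difference in WT kidney and the genotype difference in injured kidney are not separate evidence. Between the sham kidneys 1 of the 10 genes was at least 2-fold higher in Nlrc5-/- mice (Cdkn1a), where 3.86% of 17036 genes were, and 0 were 2-fold lower, where 3.25% were. The median of the 10 genes was 0.09. The sham comparison sets a kidney of female pattern against one of male pattern, so genotype, slide and sex cannot be told apart in it. By their brightest probes, Mdm2 (-0.68), Ccng1 (-0.77), Bax (-0.40) and Trp53inp1 (-0.43) were lower in Nlrc5-/- sham kidney too. Between the injured kidneys these 4 genes stood at -0.52, -0.71, -0.36 and -0.70, so their negative sign was not particular to injured kidney. The 10-spot Mdm2 probe gave 0.04 between the sham kidneys. The other 6 genes were above 0 there by their brightest probes, with Gdf15 at 0.03, within the spot SD of 0.11. The second Sesn2 probe gave -0.25. With median scaling Gdf15 stood at -0.12 and Bbc3 at -0.01, and the rest of the 6 stayed above 0.

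**Figure D3:**
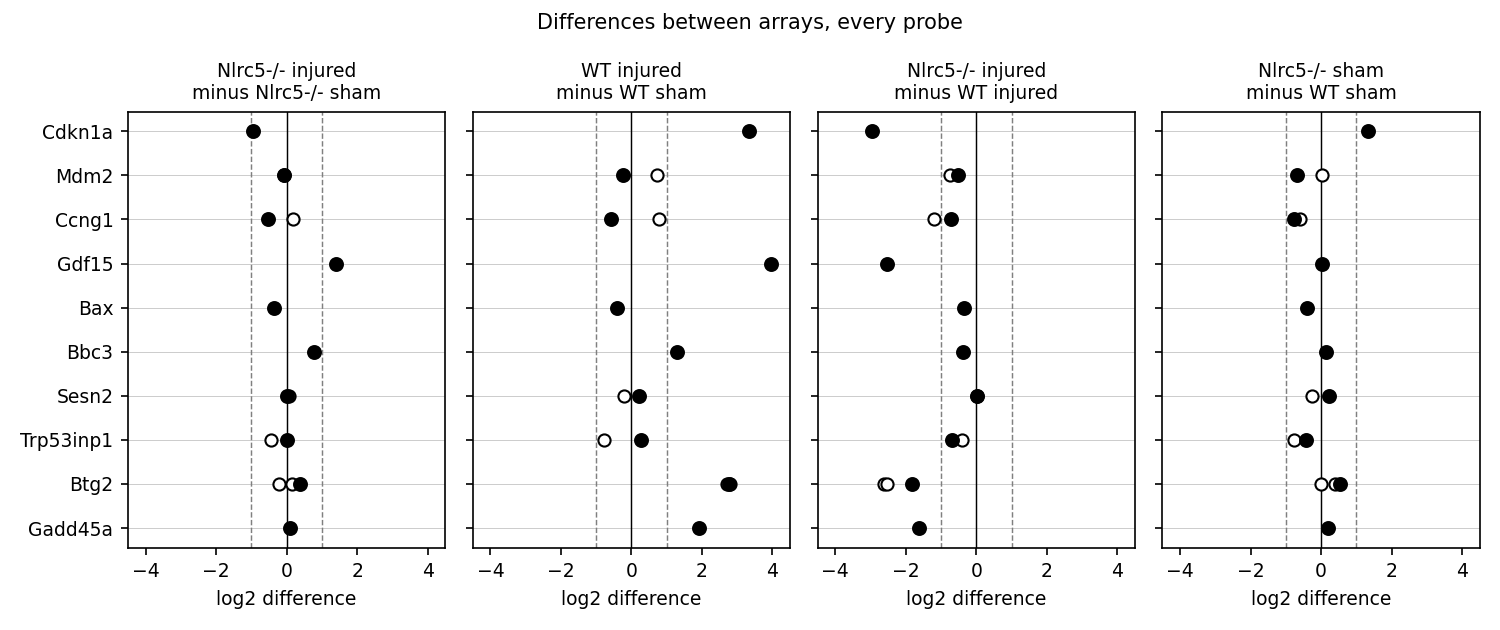
Log2 difference between arrays (horizontal axis) for each probe of the 10 genes, with the probe that stands for the gene filled and other probes open. Dashed lines mark 2-fold. In Nlrc5-/- mice Gdf15 is past the line after injury, in WT mice 5 genes are, and 4 genes are past it on the lower side between the injured kidneys.

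The injury response of Nlrc5-/- minus that of WT kidney was -4.29 for Cdkn1a, -2.57 for Gdf15, -2.38 for Btg2 and -1.82 for Gadd45a. These were the 4 of the 10 genes at least 2-fold below 0, where 9.35% of 14994 genes were. By the brightest probe of each gene, the remaining 6 lay between -0.52 for Bbc3 and 0.16 for Mdm2. The spot SD of this quantity was 0.14. The second probes lay outside that range, at -0.79 for Mdm2 (its 10-spot probe), -0.59 for Ccng1, 0.26 for Sesn2 and 0.34 for Trp53inp1. The 4 arrays leave no residual for a test of these differences.

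**Figure D4:**
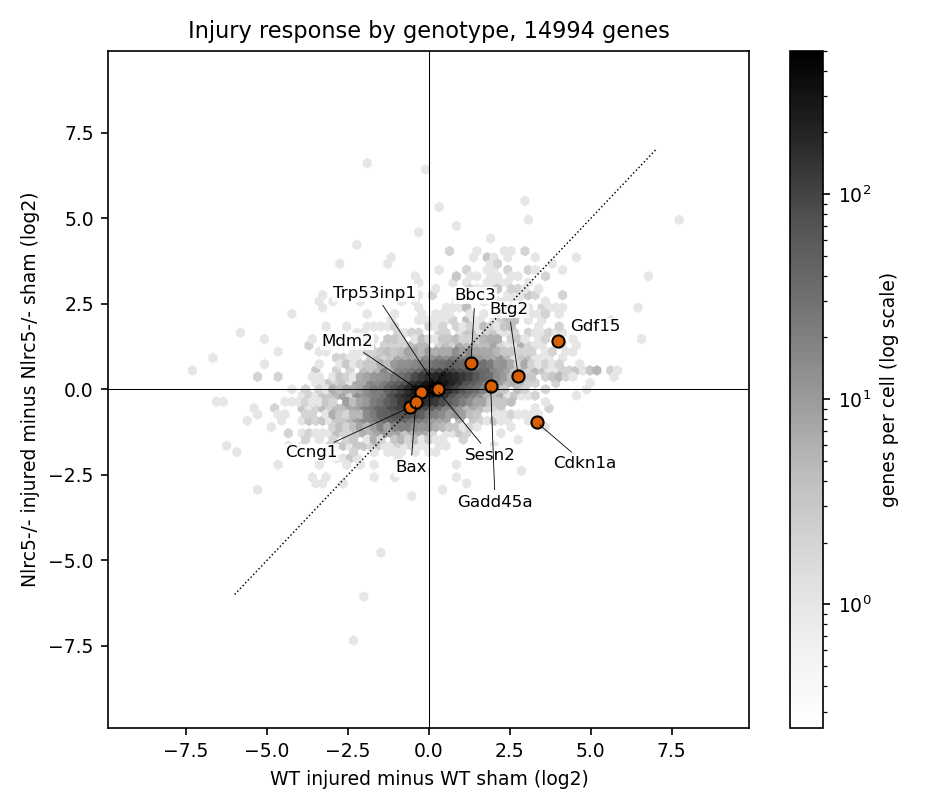
Injured minus sham log2 difference in Nlrc5-/- kidney (vertical axis) against that in WT kidney (horizontal axis) for 14994 genes above background on all 4 arrays (grey cells, darker for more genes, log scale), with the 10 genes as orange points. The dotted line marks equal responses. Gdf15, Btg2, Gadd45a and Cdkn1a lie to the lower right of the line, Cdkn1a below 0 in Nlrc5-/- kidney, and the other 6 lie near the bulk of genes.

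In an additive limma fit of treatment and genotype over 16609 genes, 0 genes passed an adjusted p of 0.05 for injury (smallest adjusted p = 0.414), while 1866, or 11.2%, had an unadjusted p under 0.05. Of the 10 genes, 2 had an unadjusted p under 0.05 for injury in the limma fit, Gdf15 at 0.0276 and Bbc3 at 0.0296, both with an adjusted p of 0.432. Both read higher after injury in each genotype. For Cdkn1a the limma estimate was 1.18 with a standard error of 1.18 (adjusted p = 0.635), since the opposite responses of the 2 genotypes enter this fit as error. For genotype, 0 of 16609 genes passed in limma (smallest adjusted p = 0.767), 907, or 5.46%, had an unadjusted p under 0.05, and 0 of the 10 genes did.

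The scaling between arrays and the choice of probe bear on these values. Without any scaling, the difference between the injured kidneys was -1.96 for Cdkn1a, -1.54 for Gdf15, -0.83 for Btg2 and -0.63 for Gadd45a, while the median over all genes stood at 1.01, against 0.01 with scaling. In WT kidney the unscaled injury differences were 1.997 for Cdkn1a, 2.64 for Gdf15, 1.43 for Btg2, 0.58 for Gadd45a and -0.033 for Bbc3, beside a median over all genes of -1.30. The signs of Cdkn1a, Gdf15, Btg2 and Gadd45a in both of these comparisons were the same under each of the 8 alternative scalings, background corrections and probe choices. Between the injured kidneys each of the other genes changed sign under at least 1 of these alternatives. Cdkn1a, Gdf15, Gadd45a, Bbc3 and Bax each had 1 probe, so the alternative probe choices could not change their values. Among 667 genes with several probes whose brightest probe was at least 2-fold higher in WT injured than in WT sham kidney, every probe was so in 33.4%, and some probe had the opposite sign in 29.4%.

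Other genes of the pathway were followed through lists chosen by name. Of 28 other p53 targets measured, 0 were 2-fold higher and 7 were 2-fold lower in Nlrc5-/- injured than in WT injured kidney, with a median of -0.34, where 8.67% of all genes were higher and 7.80% lower. With injury, 2 were 2-fold higher and 0 lower in Nlrc5-/- kidney (27 measured, median 0.04), where 4.43% and 3.19% of all genes were. In WT kidney 8 were higher and 3 lower (28 measured, median 0.56), where 14.3% and 12.7% of all genes were. Plk3, a polo-like kinase of the stress response, read 0.48 in Nlrc5-/- injured, 2.49 in WT injured, 0.86 in Nlrc5-/- sham and -0.11 in WT sham kidney, the same order of arrays as Cdkn1a for the highest and lowest. Aen, a nuclease that acts in apoptosis, was 1.87 lower in Nlrc5-/- injured than in WT injured kidney. Eda2r, a receptor of the TNF receptor family, was well above background in WT injured kidney only. On the bound set by the lowest signal above background, Eda2r was at least 1.80 on the log2 scale lower in Nlrc5-/- injured kidney. It entered the counts through the WT injured array alone. Eda2r could therefore count only as lower between the injured kidneys and only as higher with injury in WT kidney. Its other probes were not well above background on any array. Psrc1, which encodes a spindle protein, had an injury difference of 3.32 in Nlrc5-/- and 2.54 in WT kidney by its brightest probe. Its other probes gave 2.62 and 0.18 in Nlrc5-/- and 2.21 and 1.04 in WT kidney, so the genotype with the larger response depended on the Psrc1 probe, while all 3 read higher in Nlrc5-/- injured than in WT injured kidney. Tnfrsf23, a decoy receptor of the TNF receptor family, had an injury difference of 0.56 in Nlrc5-/- and 2.36 in WT kidney. With another background correction, normexp fitted without flagged spots, these were 1.46 and 1.38. With it the difference between injured kidneys was 0.31 for Tnfrsf23, against -0.87, and 0.52 for Eda2r. It was -1.89 for Plk3, -1.52 for Aen and 0.43 for Psrc1.

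The mRNA of p53 itself depended on the probe. The brightest Trp53 probe read 3.07 in Nlrc5-/- injured, 2.61 in WT injured, 2.99 in Nlrc5-/- sham and 2.96 in WT sham kidney, with an injury difference of -0.35 in WT kidney. The second Trp53 probe read 1.22 in Nlrc5-/- injured, 1.57 in WT injured, 0.64 in Nlrc5-/- sham and -0.20 in WT sham kidney, an injury difference of 1.78 in WT kidney. The probes thus disagreed, and on the second the highest and lowest arrays were those of Cdkn1a. Mdm4, which inhibits p53 together with Mdm2, differed by 0.09 between the injured kidneys. Among 15 regulators and relatives of p53, 0 were 2-fold higher and 1 (Trp63, a p53 relative of epithelia, at -1.14) was 2-fold lower in Nlrc5-/- injured than in WT injured kidney, against 8.67% and 7.80% of all genes, with a median of 0.09. The largest of the remaining differences were 0.90 for Trp53bp1, a DNA damage response scaffold, and -0.60 for Ppp1r13l, an inhibitor of p53, whose second probe gave 0.34. Trp63 was also lower in Nlrc5-/- sham than in WT sham kidney, at -1.25. With another background correction, normexp fitted without flagged spots, its difference between injured kidneys was 0.53. The other Trp63 probes were not well above background on any array. Chek1, a checkpoint kinase, was higher with injury by 2.19 in Nlrc5-/- and 2.14 in WT kidney.

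Other inhibitors of the cell cycle were counted in the same way. Of 15 measured, 2 were 2-fold higher and 2 were 2-fold lower in Nlrc5-/- injured than in WT injured kidney, near the 8.67% and 7.80% of all genes, with a median of 0.20. Cdkn1c, which encodes the p21 relative p57, was 2.15 higher in Nlrc5-/- injured kidney, with levels of 3.20 in Nlrc5-/- injured and 1.06 in WT injured kidney, and 3.61 in Nlrc5-/- sham and 2.42 in WT sham kidney. Cdkn2c, an inhibitor of Cdk4 and Cdk6, was 1.42 higher by its brightest probe and 1.37 higher by its other probe. Btg3, a relative of Btg2, was 1.26 lower. Cdkn2a was not well above background on any array.

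Because Gdf15 and Sesn2 also answer to the integrated stress response, genes of ATF4 and CHOP were set beside them. Of 11 measured, 0 were 2-fold higher and 2 were 2-fold lower in Nlrc5-/- injured than in WT injured kidney (median -0.46), where 8.67% and 7.80% of all genes were. Those 2 were the transcription factor genes Atf3, at -1.52, and Cebpb, at -1.09. Atf3 read -1.48 in Nlrc5-/- injured, 0.04 in WT injured, -2.74 in Nlrc5-/- sham and -3.23 in WT sham kidney, so both injured kidneys read above both sham kidneys. Ddit3, which encodes CHOP, read -1.31 in Nlrc5-/- injured and -0.85 in WT injured kidney.

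**Figure D5:**
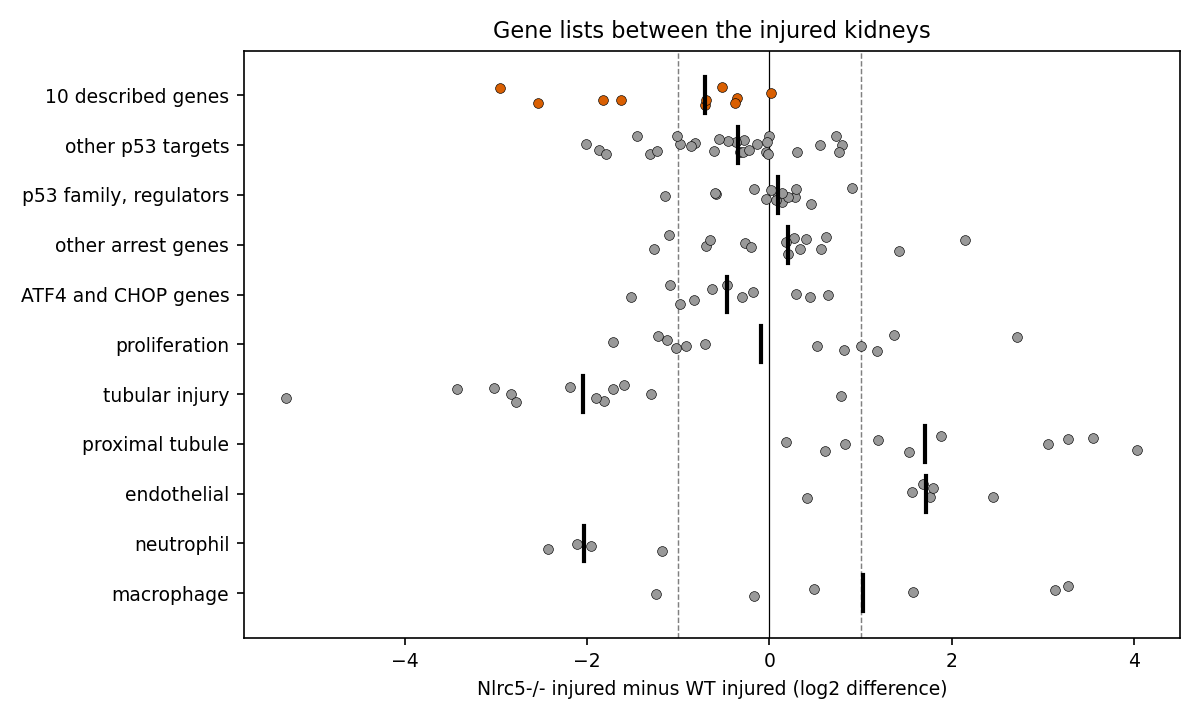
Nlrc5-/- injured minus WT injured log2 difference (horizontal axis) of each measured gene, by list, with a black bar at the median of the list and dashed lines at 2-fold; vertical scatter within a list has no meaning. The 10 genes (orange) have a median of -0.70, tubular injury genes -2.04 and proximal tubule markers 1.70.

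Markers of proliferation, injury and cell type differed between the same arrays. Of 12 proliferation genes, 11 were 2-fold higher with injury in Nlrc5-/- kidney (median 2.42) and 10 in WT kidney (median 1.97). Of all genes, 4.43% were 2-fold higher in Nlrc5-/- and 14.3% in WT kidney. All 12 were above background in both injured kidneys, against 10 in Nlrc5-/- sham and 11 in WT sham kidney. Those dim in a sham kidney could count only as higher with injury there. Between the injured kidneys 3 of the 12 were higher and 4 lower in Nlrc5-/- mice, among them the mitotic cyclin gene Ccnb2 at 2.71 and the cyclin E gene Ccne1 at -1.72. Of all genes, 8.67% were 2-fold higher and 7.80% lower in this comparison. Of 12 tubular injury genes, 11 were 2-fold lower in Nlrc5-/- injured than in WT injured kidney (median -2.04). Of 10 proximal tubule markers, 7 were 2-fold higher (median 1.70), with medians of 5.38 in Nlrc5-/- injured and 4.07 in WT injured kidney. All 4 measured neutrophil markers were 2-fold lower (median -2.03). Also 2-fold higher were 5 of 6 endothelial (median 1.72), 4 of 5 podocyte (1.46) and 2 of 4 urothelial markers (0.94). So were 3 of 6 each of thick limb and distal tubule (0.99), fibroblast (1.01) and macrophage markers (1.03, 1 lower). Of 6 T cell markers 1 was higher (0.47), and of 6 collecting duct markers 1 was higher and 2 lower (-0.51). Of 3 adipocyte markers 1 was lower, and of 3 erythroid markers 0 were 2-fold apart. In Nlrc5-/- injured and WT injured kidney, 3 and 4 neutrophil, 4 and 2 urothelial and 6 and 4 T cell markers were above background. So were 6 and 5 thick limb and distal tubule, 2 and 3 adipocyte and 3 and 2 erythroid markers. A marker above background on only 1 of these arrays could count as 2-fold apart only as higher on that array. The part of these differences in the levels of Cdkn1a, Gdf15, Btg2 and Gadd45a was not tested, and in whole kidney RNA fewer cells of a type and less RNA per cell cannot be told apart. The sham kidneys also differed in other tissue: Nlrc5-/- sham minus WT sham differences had a median of 3.12 over erythroid and -6.02 over adipocyte markers. Only 3 of 5 adipocyte markers were above background in Nlrc5-/- sham kidney, so the differences of the rest are bounds. Whether these tissue differences bear on the sham difference of Cdkn1a was not tested, and genotype, slide and sex cannot be told apart in it.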

How the data were processed

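RNA of 4 mouse kidneys, 1 per group, was labelled with Cy3 and hybridised to one-colour Agilent arrays, per the labels' protocols. Deposited scanner files gave intensity values per spot, made with Agilent Feature Extraction, version 9.1 per the submitters' processing notes and 10.7.3.1 per the file headers, background-subtracted and detrended within each array per the file headers. A table deposited by the authors holds log2 values of the same arrays, whose scaling is not given in the sources used here, and served as an alternative. Its column medians were 5.91 to 5.93, and its direction followed the scanner intensities by rank. Probe coordinates are those of mm9 per the file headers, and the exon or UTR of a probe was not annotated here.

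Control spots and outlier spots were left out, spots of a probe were averaged, and log2 intensity was set relative to the 75th percentile of each array. A gene was represented by its probe of highest mean signal. Probes were renamed through RefSeq accessions, symbols and synonyms. Genes at least 2-fold apart on a pair of arrays were counted where the probe was above background on 1 or both. A probe not well above background took the higher of its own value and the lowest value well above background on that array. The spread over spots came from 110 probes with at least 5 spots and is technical. The number of arrays, 1 per group, limits precision. The limma fit (version 3.58.1 in R 4.3.3) used an additive model of treatment and genotype, 1 probe per gene above background on at least 2 arrays, and Benjamini-Hochberg adjustment. With 1 residual degree of freedom, a count of 0 does not show that changes of a few fold are absent. The additive fit treats a difference in response between genotypes as error.

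The genes described and all lists were chosen with earlier results of these data known. Besides the 10 genes, the text names, of each pathway or state list, genes among the 3 with the largest difference between injured kidneys or between WT kidneys, with Trp53 and Mdm4 always. Ddit3 and Cdkn2a were named after their values were seen. Alternatives covered scaling, background correction (limma normexp, offset 50), the probe that stands for a gene, the filter on dim probes, the fold threshold, the sham baseline, the terms of the fit and leaving out each array. Promoter motifs were searched on both strands of RefSeq windows of the GRCm38.p6 build. They were the p53 half-site, its core CATG, an AP-1 site, the cyclic AMP response element and a TATA box. Only the half-site and the response element were marked.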

Additional observations from a re-analysis of the deposited data

Results flagged for a closer look

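The injury response of Cdkn1a ran in opposite directions in the 2 genotypes, lower by 0.96 in Nlrc5-/- kidney and higher by 3.33 in WT kidney, a difference between responses of -4.29. The difference was not tested, since each group had 1 array, and the Nlrc5-/- response sets a kidney of male pattern against one of female pattern, so injury and sex cannot be told apart in it. With WT sham kidney as the baseline of both, Nlrc5-/- injured kidney stood at 0.37 and WT injured kidney at 3.33.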

How the results depend on the processing

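The count of genes at least 2-fold apart between injured kidneys was 4, all lower in Nlrc5-/- kidney, where 16.5% of all genes were apart. It was 2 at a 4-fold threshold (3.78% of all genes) and 3 (1 higher, 2 lower) with no scaling, where 52.2% of all genes were apart. For injury in WT kidney it was 5 (27.0% of all genes) and 3 at 4-fold (7.20%). With no scaling between arrays it was 8 (3 higher, 5 lower), where 67.3% of all genes were apart. For injury in Nlrc5-/- kidney it was 1 (7.62% of all genes). It became 0 with normexp background correction, where 33.0% of all genes were apart, and 0 with normexp fitted without flagged spots (30.1%). It was 0 at 4-fold (1.60% of all genes), 3 at 1.5-fold (22.2%), 2 with no scaling (12.3%) and 2 with WT sham kidney as baseline (17.3%). Between sham kidneys it was 1 (7.10% of all genes), and 3 at 1.5-fold (23.1%) and 0 at 4-fold (1.01%). With no scaling Bbc3 stood at -0.033 for injury in WT kidney, against 1.30 with scaling. The count for the difference of responses, 4 (19.1% of all genes), was 3 to 6 under the alternatives run. The 3 came at 4-fold (4.61% of all genes). The 6, with no scaling, were 3 higher and 3 lower, where 48.7% of all genes were apart.

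In limma, injury gave 0 genes, and 4438 with normexp and 4443 with normexp fitted without flagged spots, where the median of all genes shifted to 0.25 in WT kidney. Gdf15, Btg2 and Cdkn1a were called there, 3 of the 10 genes. Of all 16609 genes, 26.7% were called with normexp and 26.8% with normexp fitted without flagged spots, so the 3 are near the share of all genes. Leaving out 1 array gave 0 to 784 genes for injury. The most came without the Nlrc5-/- injured array, where the injury estimate was 3.96 for Gdf15 and 2.49 for Btg2. For genotype limma gave 0, and 97 with normexp and 118 with normexp without flagged spots, and 0 to 143 with 1 array left out (143 without the WT sham array), none of them among the 10 genes. Fits with 1 array left out dropped the other term, and the lone array was assumed to vary like the others. The cause of these shifts was not tested. No scaling, normexp without flagged spots and the dimmest probe were alternatives chosen after seeing the data. No paired analysis was possible because each group held 1 array and thus 1 replicate number, and the additive limma fit compares injured with sham within each slide, since slide and genotype coincide.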

Other observations

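The plot of injury responses holds a narrow band of genes far higher with injury in WT kidney and nearly level in Nlrc5-/- kidney. Of 50 genes above background on all 4 arrays with an injury difference of at least 4 on the log2 scale in WT kidney, 30 had one between 0.25 and 0.75 in Nlrc5-/- kidney, limits chosen after the plot was seen. In the 30 the median difference between Nlrc5-/- sham and WT sham kidney was 1.40. A second probe above background existed for 7 of the 30, and every probe was at least 2-fold higher with injury in WT kidney for 0 of the 7. Outside the band 1 of the other 20 genes had such a second probe, and its probes all were. The cause was not tested. The 10 p53 target and arrest genes had 0 members among the 50. Gdf15 came nearest, at 3.97 in WT kidney with 1.40 in Nlrc5-/- kidney and 0.03 between the sham kidneys, and like Cdkn1a and Gadd45a it had a single probe.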
